A study of Macaca mulatta with 2 samples.

Results

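Cell cycle and proliferation genes were examined in the prefrontal cortex of infant rhesus macaques as a set of 51 genes, taken by symbol. They comprise cyclins, cyclin-dependent kinases (CDKs), replication licensing and DNA synthesis genes, mitotic genes, CDK inhibitors, and E2F1 with the pocket proteins that bind it. All 51 were found among the 33618 genes of the count table. RNA sequencing was available here for 1 control and 1 sevoflurane library, each from the prefrontal cortex at postnatal day 28 by the labels, so each difference compares 2 libraries and has no replicate check. Sevoflurane is an inhaled anesthetic, and the labels place its exposures at about postnatal days 7, 14 and 28, for 4 h each at about 2.5 to 3%. The study's methods give later days for the last exposures and place tissue collection right after the last of them, and the handling of the control animal is not given in the sources used here. The question addressed was how much proliferation shows in the infant cortex and how the same genes stood after sevoflurane.

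Proliferating cells pass through G1, when D-type cyclins with CDK4 and CDK6 inactivate the retinoblastoma protein and release E2F factors, then S phase, when licensed origins fire and DNA is copied, and then G2 and mitosis under CDK1 with cyclin B. CDK inhibitors restrain these kinases and help to hold neurons out of the cycle. In primate cortex after birth most neurons no longer divide, and the dividing cells are mainly glial precursors, with some microglia and vascular cells. Since D-type cyclins, CDK inhibitors and the retinoblastoma protein are also made by cells that do not divide, reads on them do not measure division, whereas MKI67 and TOP2A are made mainly in cycling cells. Some mitotic genes have other uses, and ANLN is one of them.

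Depth on genes was 16960880 reads (control) and 9839105 reads (sevoflurane). Levels are given in CPM, counts scaled with edgeR's TMM factors to a common library size. Differences are log2 ratios, sevoflurane over control, with a prior count of 2 added. Each ratio has a 95% Clopper-Pearson interval that covers counting error only, and none of the variation between animals. A gene was tested when it reached at least 1 CPM in either library, and it was called higher or lower when its ratio was at least 2-fold and its interval excluded equal expression. Gene lengths were not used, so where genes are set side by side, their reads and CPM also reflect gene length. The libraries also differed in the 7 Y-linked genes listed, with 3 control reads against 4308 sevoflurane reads, so sex, animal and exposure cannot be told apart. In bulk tissue, fewer cells of a type and less RNA per cell cannot be told apart either.

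The cell cycle genes were detected in both libraries, with widely differing CPM that were not corrected for gene length. The 51 genes together took 0.129% of the control reads and 0.123% of the sevoflurane reads, and none of the 51 was without reads in either library. Of these reads, CCND2 alone held 10207 of 21914 in control cortex. The 21 G2 and M phase genes took 0.0193% and 0.0182% of all reads. Of the 51, 29 had fewer than 100 reads in both libraries, and 16 reached 10 CPM in both. The 4 that stayed under 1 CPM in both were all mitotic genes, namely CCNB2, UBE2C, BUB1 and AURKB. MKI67, which encodes the Ki-67 antigen used to count cycling cells, was at 5.83 CPM in control cortex and 2.72 CPM in sevoflurane cortex. TOP2A, the DNA topoisomerase of dividing cells, was at 6.61 and 3.73 CPM. Both of these levels were lower in the sevoflurane library.

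**Figure D1:**
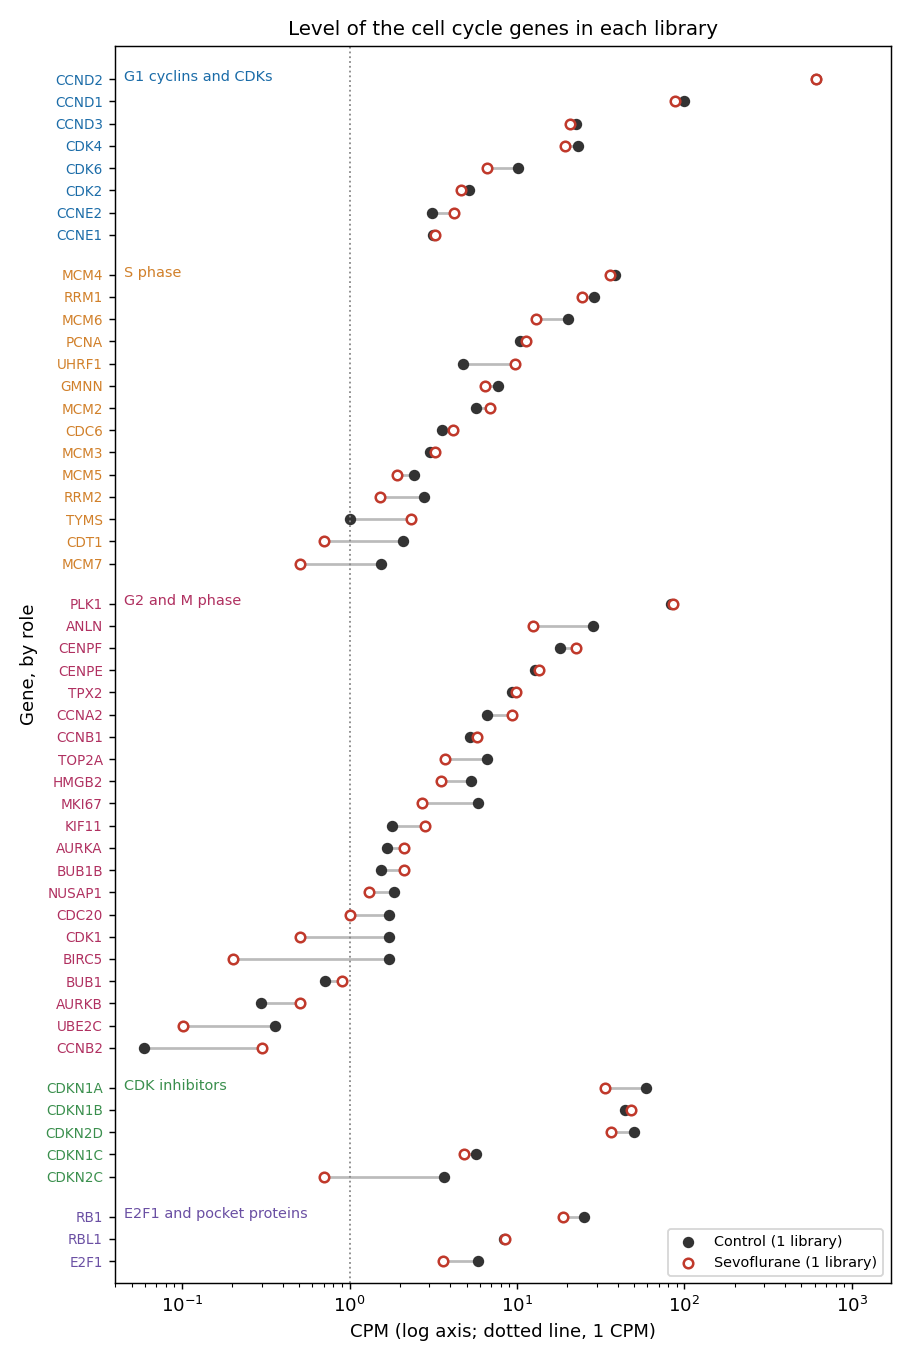
CPM of each of the 51 genes (log axis) in the control library (filled circles) and the sevoflurane library (open circles), grouped by role and not corrected for gene length. The 4 genes with both circles left of the dotted line at 1 CPM are mitotic genes, and the circles of CCND2 and PLK1 nearly coincide.

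Among the 47 tested genes, 2 were called higher (4.26%) and 7 lower (14.9%) in the sevoflurane library, beside 7.56% higher and 5.47% lower among all 18050 tested genes. Those higher were TYMS and UHRF1, which act in S phase. Lower genes were CDT1 and MCM7 of the licensing machinery, the mitotic genes MKI67, CDK1, BIRC5 and ANLN, and the CDK inhibitor CDKN2C. CDT1, MCM7, CDK1, BIRC5 and CDKN2C were under 1 CPM in the sevoflurane library, so only their higher control level let them be tested. Of the 7 lower genes, 6 had a mean under 5 CPM, where calls are more frequent in general. In that range 6 of 21 members were lower and 1 was higher, beside 11.7% lower and 18.8% higher among all tested genes of the range. At 5 CPM or more, 1 of 26 members was lower and 1 higher, beside 3.03% and 3.19% of all such genes.

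Without the 2-fold requirement, the interval lay below equal expression for 19 of the 47 genes (40.4%) and above it for 4 (8.51%). Over all tested genes these shares were 28.1% and 28.4%. The median log2 ratio of the 47 genes was -0.18, beside -0.0048 over all tested genes. By role, the median was -0.14 for 8 G1 cyclins and CDKs, -0.17 for 14 S phase genes, 0.03 for 17 tested G2 and M phase genes, -0.45 for 5 CDK inhibitors and -0.43 for the 3 genes of E2F1 and its pocket proteins. The G2 and M phase genes thus had a median near 0 although 4 of them were called lower, since ratios lay on both sides. Their ratios ran from -2.42 for BIRC5 to 0.62 for KIF11.

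**Figure D2:**
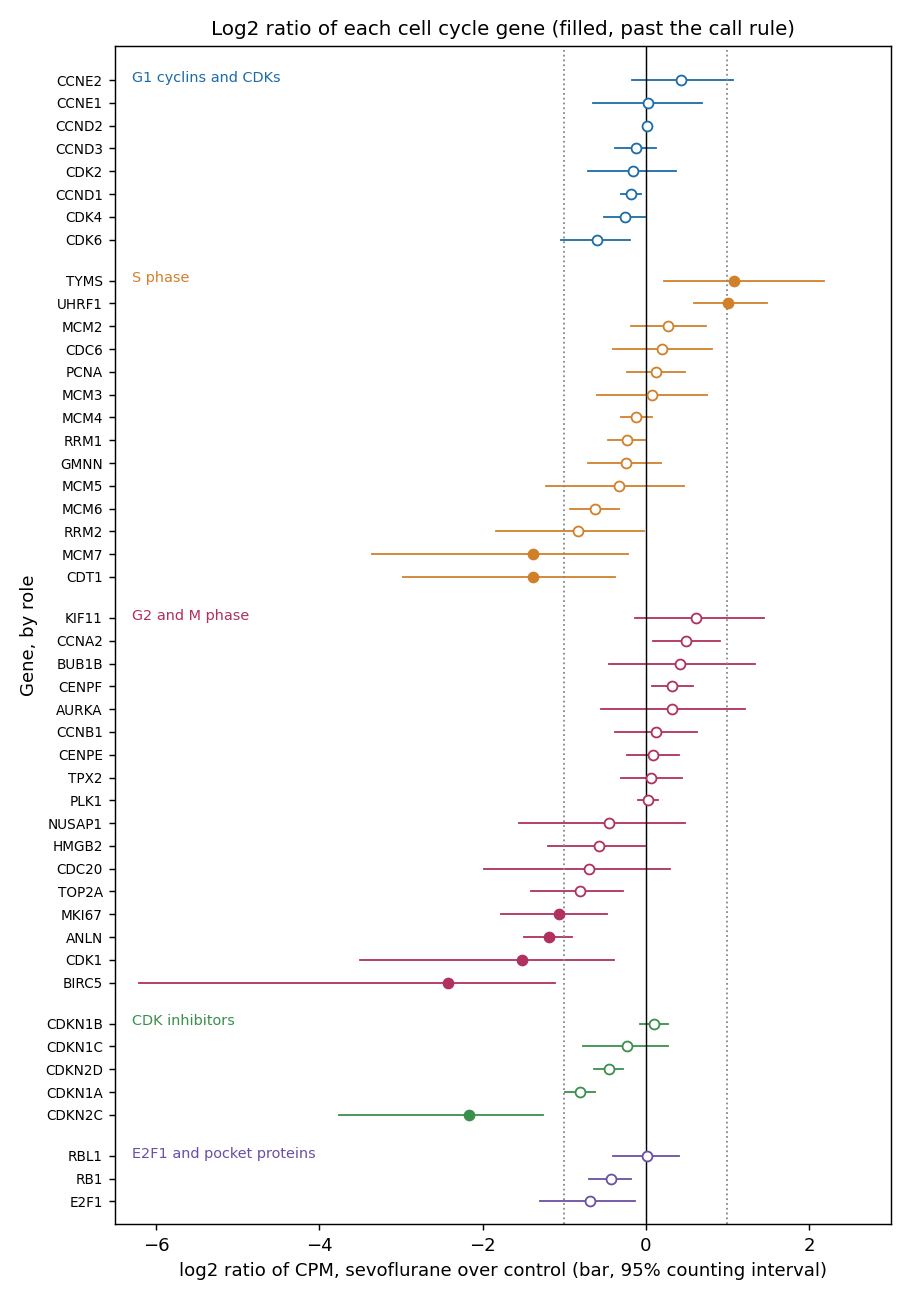
Log2 ratio of CPM, sevoflurane over control, for the 47 tested genes by role, with 95% counting intervals as bars and filled circles for the 9 genes called. CDKN2C and BIRC5 lie farthest to the left, and the intervals of genes with few reads are wide.

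Of the 8 G1 cyclins and CDKs, 0 were called, beside 7.56% higher and 5.47% lower among all tested genes. The intervals of CCND1, CDK4 and CDK6 lay below equal expression (37.5% of the 8, beside 28.1% of all tested genes), and none lay above it. D-type cyclins carry growth signals to the cell cycle, and CCND2 had 10207 reads (607 CPM) in control cortex and 6087 (613 CPM) in sevoflurane cortex, a log2 ratio of 0.01 with an interval of -0.03 to 0.06. CCND1 had 1681 and 877 reads and a ratio of -0.18 (-0.30 to -0.06). The CCND1 interval lay below that of CCND2 without overlap. For CCND3, with 377 and 205 reads, the interval included equal expression (-0.37 to 0.13).

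CDK4 and CDK6, the kinase partners of the D-type cyclins, both had intervals below equal expression. CDK6 went from 170 reads (10.1 CPM) to 66 (6.65 CPM), a log2 ratio of -0.60 (-1.04 to -0.19), and CDK4 had a ratio of -0.26 (-0.52 to -0.01). The intervals of the 2 kinases overlapped each other. CCNE1, CCNE2 and CDK2, which drive entry into S phase, had 32 to 87 reads in a library and intervals that included equal expression. Summed over the group, the reads gave a log2 ratio of -0.03 (-0.07 to 0.01), and without CCND2, which held most of them, -0.19 (-0.28 to -0.09).

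Of the 14 S phase genes, 2 were called higher and 2 lower (14.3% each, beside 7.56% and 5.47% of all tested genes). The intervals of 7 included equal expression. CDT1, MCM7 and TYMS had a mean under 5 CPM, where 11.7% of all tested genes were called lower and 18.8% higher. Origins are licensed when CDC6 and CDT1 load the MCM2 to MCM7 helicase onto DNA, and geminin, encoded by GMNN, blocks CDT1. CDT1 had 35 reads (2.08 CPM) in control cortex and 7 (0.705 CPM) in sevoflurane cortex, a log2 ratio of -1.39 (-2.98 to -0.37). For CDC6 (60 and 41 reads, ratio 0.20) and GMNN (129 and 64 reads, ratio -0.25) the intervals included equal expression. The 6 helicase subunits work as a ring, yet their ratios ran from -1.38 for MCM7 to 0.28 for MCM2.

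MCM7 had 26 control reads and 5 sevoflurane reads (-3.36 to -0.22). MCM6, counted on more reads, went from 337 (20.1 CPM) to 129 (13.0 CPM), a ratio of -0.62 (-0.93 to -0.33) that fell short of 2-fold. The MCM6 interval overlapped neither that of MCM2 (-0.19 to 0.74) nor that of MCM4 (-0.31 to 0.07), but it overlapped those of MCM3, MCM5 and MCM7. MCM2, MCM3, MCM4 and MCM5 were not distinguishable from equal expression, with ratios of 0.28, 0.08, -0.12 and -0.33.

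Genes that supply nucleotides and copy DNA also lay on both sides of equal expression. TYMS, the thymidylate synthase, had 17 control reads (1.01 CPM) and 23 sevoflurane reads (2.32 CPM), a log2 ratio of 1.09 (0.23 to 2.19). UHRF1, which brings the maintenance DNA methyltransferase to newly copied DNA, had 80 and 97 reads, or 4.76 and 9.77 CPM, a ratio of 1.01 (0.59 to 1.48). Ribonucleotide reductase was lower in both subunits, RRM1 at -0.23 (-0.46 to -0.01) and RRM2 at -0.83 (-1.83 to -0.02), neither by 2-fold. RRM2, the subunit whose level follows S phase, had 47 and 15 reads. PCNA, the sliding clamp of the polymerases, had 175 and 113 reads and an interval that included equal expression (-0.23 to 0.48).

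**Figure D3:**
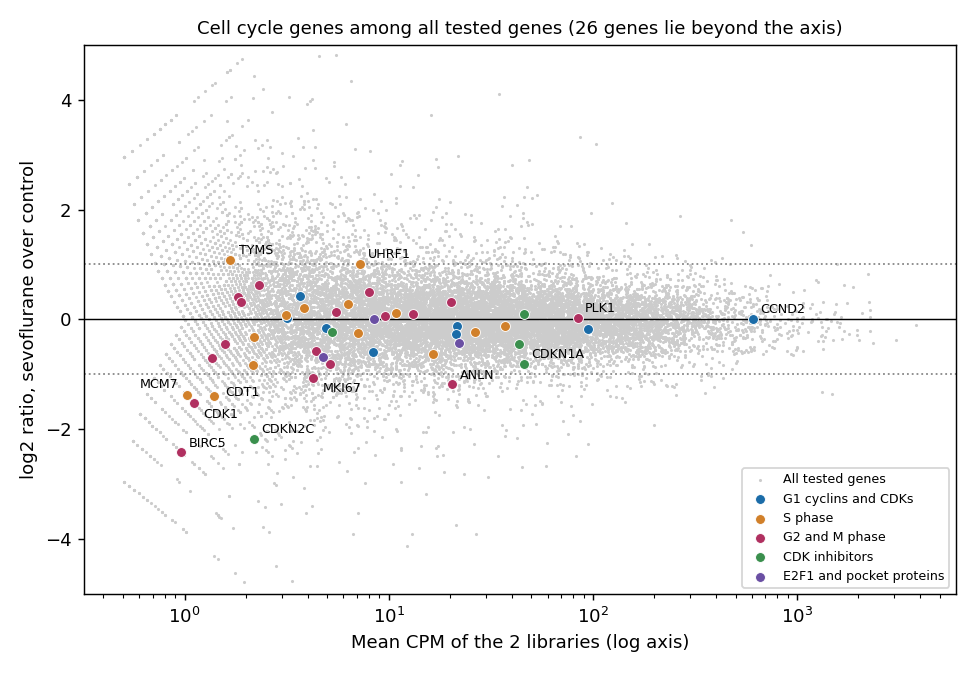
Log2 ratio of sevoflurane over control against mean CPM (log axis) for all tested genes (grey) and the cell cycle genes (coloured by role), with dotted lines at 2-fold and 26 grey genes beyond the axis. The grey points fan out at low CPM, where 8 of the 9 called members lie below 10 CPM, and ANLN is the called member with the most reads.

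Of the 17 tested G2 and M phase genes, 4 were called lower (23.5%, beside 5.47% of all tested genes) and 0 higher. Among the lower ones was MKI67, the marker used to detect dividing cells. MKI67 had 98 control and 27 sevoflurane reads, a log2 ratio of -1.06 (-1.77 to -0.47), so its CPM in the sevoflurane library was 46.6% of that in the control. CDK1, the kinase that starts mitosis, had 29 and 5 reads and a ratio of -1.52 (-3.50 to -0.39). BIRC5 encodes survivin, a subunit of the chromosomal passenger complex, and had 29 and 2 reads (-6.21 to -1.12). With 2 sevoflurane reads, the size of the BIRC5 difference is set only by that interval. CDK1 and BIRC5 were under 1 CPM in the sevoflurane library, so only their control level let them be tested. MKI67, CDK1 and BIRC5 had a mean under 5 CPM, where 11.7% of all tested genes were called lower.

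ANLN encodes anillin, a scaffold of the cleavage furrow that is also found in the myelin of mature oligodendrocytes. It had 479 reads (28.5 CPM) in control cortex and 124 (12.5 CPM) in sevoflurane cortex, a log2 ratio of -1.18 (-1.49 to -0.90). Oligodendrocyte markers were lower too, since 5 of 6 were called lower (83.3%, beside 5.47% of all tested genes). The summed level of these markers was 4056 CPM in control cortex and 1994 CPM in sevoflurane cortex. Their part in the ANLN difference was not tested. TOP2A (111 and 37 reads, ratio -0.80, -1.40 to -0.28) and HMGB2, a chromatin protein (89 and 35 reads, ratio -0.57, -1.20 to -0.01), were lower by less than 2-fold.

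Other mitotic genes were higher or not distinguishable from equal expression. CCNA2, the cyclin of S and G2 phase, had 111 control reads (6.61 CPM) and 93 sevoflurane reads (9.36 CPM), a ratio of 0.49 (0.09 to 0.91). CENPF, a kinetochore protein, had 302 and 224 reads and a ratio of 0.33 (0.07 to 0.58). Both intervals lay above equal expression and overlapped neither that of MKI67 nor that of TOP2A. Intervals of CCNB1, CENPE, TPX2 and KIF11, a mitotic cyclin, a kinetochore motor, the activator of Aurora A and a spindle motor, included equal expression. CCNB1 had 88 and 57 reads, and the other ratios were 0.09, 0.07 and 0.62.

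PLK1, the Polo-like kinase of mitosis, was level between the libraries. It had 1399 reads (83.3 CPM) in control cortex and 844 (85.0 CPM) in sevoflurane cortex, a ratio of 0.03 (-0.10 to 0.15). PLK1 alone held 1399 of the 3275 control reads of the 21 G2 and M phase genes. Its span overlaps DCTN5 and ERN2 in the RefSeq table, and DCTN5, a dynactin subunit, had 2084 and 1067 reads. How the authors assigned reads in overlapping genes is not given in the sources used here. The summed reads of the group gave a log2 ratio of -0.11 (-0.19 to -0.03), and without PLK1 -0.23 (-0.34 to -0.11).

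Checkpoint and exit genes of mitosis had few reads, with at most 31 in a library. CDC20, the activator of the anaphase-promoting complex, had 29 and 10 reads, and UBE2C, its ubiquitin-conjugating enzyme, had 6 and 1. The spindle checkpoint kinase gene BUB1 had 12 and 9 reads, and BUB1B had 26 and 21. AURKA, the Aurora kinase of spindle poles, had 28 and 21 reads, and AURKB, the passenger complex kinase, had 5 in each library. CCNB2 had 1 control and 3 sevoflurane reads, and NUSAP1, a spindle protein, had 31 and 13. For all 8 of these genes the interval included equal expression and spanned at least 1.76 log2 units, so that a 2-fold difference in at least 1 direction lay within counting error for each of them. The widest interval of a tested member, that of BIRC5, spanned 5.10 log2 units, against 0.092 for CCND2.

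Of the 5 CDK inhibitors, 1 was called lower and 0 higher (20.0% lower, beside 5.47% of all tested genes). The intervals of CDKN2C, CDKN2D and CDKN1A lay below equal expression (60.0% of the 5, beside 28.1% of all tested genes). The summed reads of the 5 inhibitors gave a log2 ratio of -0.40 (-0.50 to -0.30), and without CDKN1A, -0.21 (-0.33 to -0.09). Summed levels were 163 and 123 CPM. CDKN2C, which encodes p18, an inhibitor of CDK4 and CDK6, had 62 control reads (3.69 CPM) and 7 sevoflurane reads (0.705 CPM), a ratio of -2.17 (-3.76 to -1.26). It was the 1 inhibitor called, and only its control level let it be tested. Its mean was 2.20 CPM, and among all tested genes under 5 CPM on average 11.7% were called lower. CDKN2D, which encodes p19 of the same INK4 family, had 840 and 362 reads and a ratio of -0.45 (-0.64 to -0.28). The intervals of the 2 INK4 genes did not overlap.

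Of the other inhibitor family, CDKN1A encodes p21, a target of p53. It had 987 reads (58.7 CPM) in control cortex and 334 (33.6 CPM) in sevoflurane cortex, a ratio of -0.80 (-0.99 to -0.62), or 57.3% of the control CPM. CDKN1B, the p27 gene, had 746 and 474 reads and an interval that included equal expression (-0.06 to 0.27), above that of CDKN1A without overlap. CDKN1C, the p57 gene, had 96 and 48 reads (ratio -0.23, -0.77 to 0.27).

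E2F1 and RB1 were both lower by less than 2-fold. E2F1 activates S phase genes, and it had 99 and 36 reads and a ratio of -0.68 (-1.29 to -0.14). RB1, the retinoblastoma gene, had 425 control reads (25.3 CPM) and 186 sevoflurane reads (18.7 CPM), a ratio of -0.43 (-0.69 to -0.18). RBL1, the p107 gene, had 141 and 84 reads and was not distinguishable from equal expression (-0.40 to 0.41).

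The rest of the pathway was read from 118 further cell cycle genes, of which 115 were matched to the table, while KNL1, SGO1 and SGO2 were not matched. Of 97 tested, 2 were called higher (2.06%) and 8 lower (8.25%), beside 7.56% and 5.47% of all tested genes, and the median log2 ratio was -0.04. Among 42 tested mitotic genes, 6 were lower (14.3%) and 1 higher (2.38%). Of these, 28 had a mean under 5 CPM, with 6 lower and 0 higher (21.4% lower), beside 11.7% lower and 18.8% higher among all tested genes in that range. The lower ones with the largest ratios were NCAPG, a condensin subunit (38 and 2 reads, -6.59 to -1.54), TACC3, a spindle protein (41 and 5, ratio -1.99), MYBL2, a transcription factor of mitotic genes (41 and 7, ratio -1.60), and HMMR, a spindle protein (54 and 11, ratio -1.42). NCAPG, TACC3 and MYBL2 were under 1 CPM in the sevoflurane library, so only their higher control level let them be tested. CENPM, a centromere protein, was the higher one (71 and 106 reads, ratio 1.31) and is named after its values were seen. The 42 mitotic genes outside the set had a median of -0.04, with ratios from -2.78 to 1.31. The summed reads of the 52 matched to the table gave a log2 ratio of 0.18 (0.11 to 0.25), above the sum of the member G2 and M phase genes (-0.11). The 38 of them with a mean under 5 CPM gave -0.47 (-0.61 to -0.32), so the sum above 0 came from the more abundant genes.

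Among 25 tested replication genes outside the set, the median was 0.02. MCM10, a factor in helicase activation, was higher (10 and 22 reads, ratio 1.67, 0.76 to 3.14). GINS4, a subunit of the active helicase, was lower (28 and 6 reads, ratio -1.27, -3.03 to -0.16). MCM10 was under 1 CPM in the control library and GINS4 in the sevoflurane library, so each was tested through the other library. The 30 tested genes among the other cyclins, CDKs and E2F factors had a median of -0.14. Only E2F5, a repressor of the E2F family, was called among them (158 and 39 reads, ratio -1.23). RBL2, the third pocket protein gene, and CDKN2A were listed at 0 reads in both libraries, and are named after their values were seen. CDKN2A was matched by RefSeq gene ID. Whether 0 reads meant no transcript or reads not assigned to these genes was not tested.

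Cell types that could divide or dilute the dividing cells were checked through their markers. Oligodendrocyte precursor markers had a summed level of 673 CPM in control cortex and 495 CPM in sevoflurane cortex, a log2 ratio of -0.44. This list does not separate dividing precursors from other cells of the lineage. Of the 8, 7 had intervals below equal expression (87.5%, beside 28.1% of all tested genes) and 1 was called lower (12.5%, beside 5.47%), and the precursor growth factor receptor gene PDGFRA had 2876 and 1292 reads (ratio -0.40). Microglia markers summed to 233 and 258 CPM, with 1 of 8 called higher, 4 intervals above equal expression and 1 below. Endothelial markers summed to 150.3 and 153 CPM with 0 of 5 called. Mural and fibroblast markers summed to 527 and 714 CPM with 2 of 7 called higher, 4 intervals above equal expression and 1 below. Beside these counts, 7.56% of all tested genes were called higher and 28.4% had intervals above equal expression.

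Neural progenitor markers summed to 529.6 CPM in control cortex and 460.3 CPM in sevoflurane cortex, a log2 ratio of -0.20. Of 8 tested markers, 0 were called, with 3 intervals below equal expression and 2 above. DCX, a gene of immature neurons, held 4551 of the 8899 control reads at a ratio of -0.61, so the sum leans on DCX. SOX2 was at -0.42, and VIM went the other way at 0.98. EOMES, the marker of intermediate progenitors of the cortex, had 0 and 1 reads. Neuron markers, expected in cortex, summed to 5298 and 4621 CPM, a log2 ratio of -0.20, with 0 of 8 called and 6 intervals below equal expression. Astrocyte markers summed to 6082 and 4199 CPM, a log2 ratio of -0.53, with 2 of 6 called lower and 5 intervals below equal expression. Over all tested genes, 5.47% were called lower and 7.56% higher, and intervals lay below equal expression for 28.1% and above it for 28.4%. Erythroid markers summed to 21.5 and 69.9 CPM, nearly all from HBB, with AHSP at 0 control reads and SLC4A1 at 0 sevoflurane reads. The part of any of these cell types in the differences of the cell cycle genes was not tested.

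**Figure D4:**
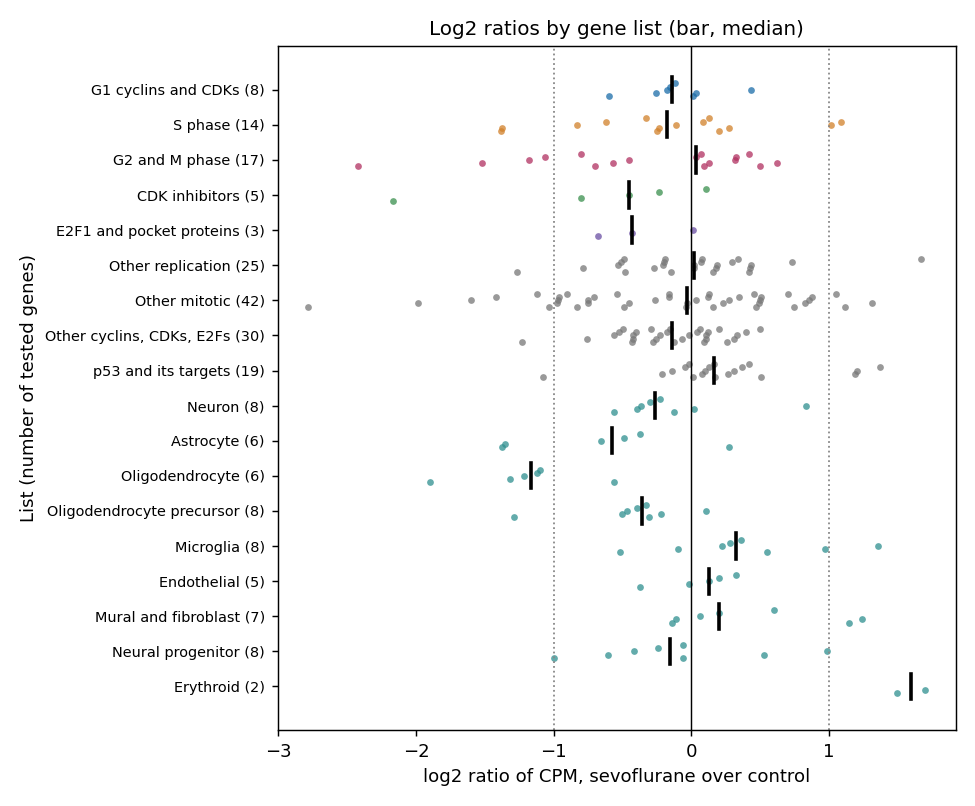
Log2 ratio of CPM, sevoflurane over control, of each tested gene by list, with the number of tested genes in parentheses and black bars for medians. The medians of the CDK inhibitors (-0.45) and of E2F1 with its pocket proteins (-0.43) lie left of those of the other cell cycle lists (-0.17 to 0.03), and all 6 oligodendrocyte markers lie left of 0.

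The calls rested on few reads in several genes. CDT1 and TYMS were no longer called when the control library was sampled down to the sevoflurane depth, and CDK1, CDT1, MCM7 and TYMS were not with a stricter counting interval. UHRF1, just past the 2-fold threshold, was not called when scaling factors came from all genes with at least 1 read. In the RefSeq table, 11 of the 51 genes overlap another protein-coding gene in span. Among the called genes these were MCM7, whose neighbour AP4M1 went from 250 to 83 reads (ratio -0.82), CDKN2C, whose neighbour FAF1 had 127 and 71 reads (ratio -0.08), and ANLN, whose neighbour MATCAP2 was not matched. CCNA2 overlaps EXOSC9, which had 172 and 135 reads (ratio 0.40). Whether reads of such neighbours were counted on the members was not tested, and these genes are therefore uncertain.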

How the data were processed

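RNA was extracted by the authors from flash-frozen prefrontal cortex with Trizol, and libraries followed standard Illumina protocols. The submitters' processing notes name HISAT2 2.0.4. The counting tool, genome build and annotation are not given in the sources used here, so no coordinates are given. The values deposited by the authors are whole-number counts per gene without normalization, 1 column per library. Groups came from the sample titles.

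Factors were computed with edgeR 4.0.16 (TMM, R 4.3.3) on genes that reached 1 CPM in the control or the sevoflurane library, and intervals with scipy 1.17.1 (Python 3.11.15, numpy 2.4.6, pandas 2.3.3, matplotlib 3.10.9). A quasi-likelihood fit in edgeR needs replicates, which 1 library a group does not give, so no p-value is given. The floor of 3 reads was 0.179 CPM for the control and 0.302 CPM for sevoflurane. Intervals cover counting error only, since each group has 1 library. No molecular identifiers are named, so duplicate reads could not be told apart and the intervals may be too narrow.

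The members, gene lists and thresholds were chosen with earlier results of these data known. Members could be named freely. From the other cell cycle and p53 lists, called genes were named, at most 4 a list by size of ratio. Marker genes were named when among the 3 most abundant of a list or at 0 reads. Symbols came from the table, and 4 listed genes were matched by RefSeq gene ID. Gene spans came from the RefSeq table of the macaque assembly MMU8v2.0 (telomere-to-telomere) and served only to find overlapping genes. Promoter motifs and coding lengths, planned at first, were not analysed here.

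As alternatives, scaling was repeated with size factors of DESeq2 1.42.0, library totals and upper-quartile factors. Others were a prior of 0.5 counts, a filter at 1 read and another at 5 CPM, sampling down the control library, thresholds of 1.5-fold and 4-fold, a stricter counting interval and, added after seeing the data, sums without the member with the most reads.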

Additional observations from a re-analysis of the deposited data

How the results depend on the processing

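The 51 single ratios stayed inside their counting intervals under all 5 alternatives that bear on them, the 3 other scalings, the prior count of 0.5 and the control library sampled down (255 of 255 values), and no called gene changed direction. All medians by role stayed within the interval of their middle members. Both outcomes were largely fixed in advance and say little about how firm the ratios are. The other scalings shift all ratios nearly alike and by little, as from 0.01 to 0.04 for CCND2 with library totals. The prior and the sampling reuse the same reads. The number of members called higher, 2 as reported, was 1 with the filter of 1 read, 1 with the filter of 5 CPM, 1 with the control library sampled down, 1 with the stricter interval and 0 at 4-fold. The number called lower, 7 as reported, was 2 with the filter of 5 CPM, 13 at 1.5-fold, 2 at 4-fold and 4 with the stricter interval. Over all genes, the counts higher and lower were 606 and 474 with the filter of 5 CPM, 2604 and 2141 at 1.5-fold, and 352 and 221 at 4-fold. These filters and thresholds change the counts by construction. Summed without the member with the most reads, the G1 cyclins and CDKs were at -0.19 (without CCND2), the G2 and M phase genes at -0.23 (without PLK1) and the CDK inhibitors at -0.21 (without CDKN1A). No paired analysis was possible because only 1 library stands in either group, and no replicate could be left out. The sevoflurane depth limits ratios of members under 5 CPM.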

Other observations

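The p53 pathway holds the p21 gene CDKN1A among its known targets. Among 19 other tested genes of this pathway, 3 were called higher (15.8%, beside 7.56% of all tested genes). Of the 19, 1 was called lower (5.26%, beside 5.47%), and the median log2 ratio was 0.16. GADD45B (47 control and 74 sevoflurane reads, ratio 1.37, 95% interval 0.87 to 1.97), a stress-induced growth arrest gene, was higher. FAS, a death receptor gene (17 and 25 reads, ratio 1.20, 0.37 to 2.30), and BBC3, the gene of the apoptosis inducer PUMA (124 and 169 reads, ratio 1.19, 0.86 to 1.55), were higher as well. The mean was 1.76 CPM for FAS, 5.12 CPM for GADD45B and 12.2 CPM for BBC3. Of all tested genes, 18.8% were called higher under 5 CPM, and 3.19% at 5 CPM or more. GADD45A, of the same family as GADD45B, was lower (124 and 34 reads, ratio -1.08, -1.70 to -0.55). The intervals of the 2 GADD45 genes did not overlap, and CDKN1A lay on the side of GADD45A.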
